A study of Mus musculus with 27 samples.

Results

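Melanocyte pigment genes were followed in bulk RNA-seq of mouse skull, meninges and brain after ultraviolet light on the cranium. The group was a list of 8 genes by name: Tyr, Tyrp1, Dct, Mlana, Pmel, Slc45a2, Oca2 and Mitf. Of these 8, 7 were measured among the 37095 gene symbols of the count table, and Tyr was not analysed here. In each tissue there were 3 libraries from mice 0.5 h after the light, 3 from mice 24 h after it and 3 from untreated mice (control), 27 libraries in 9 groups. The light was UVB of 311 nm at 2 mW, given to the interparietal bone at the rear of the skullcap. The skullcap is called skull here, and the meninges are the tissue scraped off its inner face. The question of the series is what such light does to immune cells around the brain and to recovery from stroke. No library used here carries a stroke label. Strain, coat colour, sex, age, clock time and any sham handling of the controls were not given in the sources used here. Nothing there says that same-group libraries came from separate mice, so p-values speak of the spread among these libraries, which may be technical.

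Melanocytes are neural crest cells that make melanin in an organelle, the melanosome, and in pigmented mice some of them lie in the meninges. Mitf is the transcription factor that sets up the lineage and switches on the pigment genes, and it also acts in mast cells, osteoclasts and retinal pigment epithelium. Tyr, Tyrp1 and Dct are the enzymes of melanin synthesis, Pmel forms the fibrils on which melanin is laid down, Mlana helps to process Pmel, and Slc45a2 and Oca2 are membrane transport proteins that set the melanosome's interior. In skin, UVB raises p53, which drives Pomc and so the hormone that acts on the receptor Mc1r, and Mitf then follows.

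The promoters of 3 members are shown because they carry the core of the element through which Mitf binds pigment genes. They are the 250 bases before the gene start in RefSeq (GRCm38.p6), 5′ to 3′ on the gene's strand, with CATGTG and its reverse complement CACATG in capitals. The windows are chr4:80833963-80834212 on the plus strand for Tyrp1, chr14:118052247-118052496 on the minus strand for Dct and chr7:56239509-56239758 on the plus strand for Oca2.
Tyrp1: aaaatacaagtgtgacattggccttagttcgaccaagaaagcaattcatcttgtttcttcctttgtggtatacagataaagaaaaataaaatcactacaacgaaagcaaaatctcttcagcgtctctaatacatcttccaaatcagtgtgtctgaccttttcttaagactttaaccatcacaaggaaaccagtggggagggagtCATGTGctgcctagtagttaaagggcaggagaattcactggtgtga
Dct: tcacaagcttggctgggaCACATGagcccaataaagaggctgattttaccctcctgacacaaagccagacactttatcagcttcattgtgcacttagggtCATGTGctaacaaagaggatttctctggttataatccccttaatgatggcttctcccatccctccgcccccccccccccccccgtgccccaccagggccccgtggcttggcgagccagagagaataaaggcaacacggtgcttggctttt
Oca2: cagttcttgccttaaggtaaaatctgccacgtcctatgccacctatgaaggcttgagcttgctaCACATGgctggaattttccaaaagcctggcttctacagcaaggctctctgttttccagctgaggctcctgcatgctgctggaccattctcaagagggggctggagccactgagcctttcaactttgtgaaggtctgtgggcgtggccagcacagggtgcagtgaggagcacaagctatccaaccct
The Tyrp1 match began 46 bases before the start, the Dct matches began 232 and 150 bases before it, and the Oca2 match began 186 bases before it. CATGTG, searched on both strands, was in 12.3% of the 32851 promoter windows of the same length. The longer form TCATGTGCT, which holds CATGTG within it, was in 0.335% of them, and in these 3 windows it stood in Tyrp1 and Dct. The 3 windows of Mitf held neither form. A match of letters is a description and not a measured binding site. Pmel, Mlana and Slc45a2 were named only.

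Tissue identity was checked first. Totals ran from 14.2 M to 27.3 M counts per library. Summed levels of 5 neuron markers were 7.46 to 16 CPM (counts scaled to a common library size, here with TMM-scaled totals) in skull, 227 to 381 CPM in meninges and 4670 to 5740 CPM in brain. The sums of 5 osteoblast markers were 55100 to 99800 CPM in skull, 11800 to 34300 CPM in meninges and 33.5 to 68.1 CPM in brain. Meninges also held pineal markers (870 to 1420 CPM, 6 genes), choroid plexus markers (321 to 12800 CPM, 5 genes) and mast cell markers (195 to 297 CPM, 6 genes). The scraped meninges thus held markers of neighbouring structures. The 5 retinal pigment epithelium markers summed to 1.98 to 5.05 CPM in skull, 11.2 to 17.6 CPM in meninges and 12.1 to 16.7 CPM in brain. In skull Best1 had 27 to 71 counts per library and Rlbp1 0 to 31, while the defining markers Rpe65 and Rgr had none, and Rpe65 had 5 counts in all meninges libraries together. The 6 keratinocyte markers summed to 2.36 to 5.45 CPM in skull, where Krt10 had 18 to 44 and Krt1 7 to 47 counts per library, Krt14 had 1 count in all and Krtdap none. Of the hair follicle markers in skull Tchh had 21 to 71 counts per library, and Krt25 and Krt27 had none.

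In control mice Tyrp1, Dct and Mitf were highest in the meninges, while Pmel was at a like level in skull and meninges. Tyrp1 had 1, 1 and 0 counts in control skull, 7, 5 and 31 in control meninges and 3, 1 and 2 in control brain. Dct had 2, 0 and 1 counts in control skull, 41, 26 and 28 in control meninges and 9, 7 and 4 in control brain. Every meninges library therefore held more of both enzymes' transcripts than any skull or brain library of the controls. Pmel had 66, 95 and 102 counts in control skull, 58, 92 and 98 in control meninges and 15, 30 and 13 in control brain. Mitf had 390, 529 and 559 counts in control skull, 1111, 1589 and 1769 in control meninges and 359, 203 and 194 in control brain. Pmel thus overlapped between skull and meninges and stood apart in brain, where Mitf was lowest as CPM (25.7 to 41.7 in skull, 67.9 to 96.8 in meninges and 12.3 to 13.6 in brain). Mlana and Slc45a2, the melanosome protein and transporter, were near the limit of detection. Mlana had 0 counts over the 9 skull libraries, 11 over the 9 meninges libraries and 8 over the 9 brain libraries. Slc45a2 had 0, 10 and 18 counts in the same order of tissues. A count of 0 over the 9 skull libraries allows a level of up to 0.0218 CPM (3 counts, counting error only).

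Per kilobase of exon, Mitf led in every control tissue and Pmel came next. In control meninges the levels were 13.5 ± 2.35 CPM per kb for Mitf, 2.02 ± 0.416 for Pmel, 0.539 ± 0.467 for Oca2, 0.307 ± 0.102 for Dct and 0.282 ± 0.277 for Tyrp1 (SD, n = 3). The SDs of Oca2, Dct and Tyrp1 spanned the gaps between them, so their order is not resolved. In control skull Mitf stood at 5.4 ± 1.3 CPM per kb and Pmel at 2.6 ± 0.713 (SD, n = 3), while Oca2 at 0.0389 ± 0.0247, Tyrp1 at 0.0151 ± 0.0131 and Dct at 0.0117 ± 0.0112 were near zero. In control brain the levels were 2.09 ± 0.101 CPM per kb for Mitf, 0.48 ± 0.31 for Pmel, 0.224 ± 0.0808 for Oca2 and 0.0588 ± 0.0162 for Dct (SD, n = 3).

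Across the whole table, 5 of the 7 measured genes passed the count filter in the fit of all 27 libraries. Tyrp1 and Dct passed it within meninges and in no other single tissue, and Oca2 did not pass within skull. A gene that passes through the tissue where it is high is bound to differ between tissues. The members called are therefore not counted as a result, and these genes are given by counts and ratios. Between meninges and brain of control mice, Mitf and Pmel, which passed within both tissues, were higher in meninges (edgeR quasi-likelihood test, Benjamini-Hochberg over all genes). The log2 differences of meninges minus brain were 2.72 ± 0.17 (SE) for Mitf and 2.12 ± 0.45 for Pmel (adjusted p 6.59e-13 and 0.000221), and 70.5% of all tested genes were called in that comparison, 36.8% as higher in meninges. Oca2, which also passed within both, differed by 1.32 ± 1.03 with an adjusted p of 0.260. Between skull and meninges, Mitf was lower in skull, by -1.35 ± 0.16 on the log2 scale, against 48.2% of all genes called and 26.5% called lower. Pmel differed by 0.33 ± 0.41 with an adjusted p of 0.542. Oca2 had 4, 2 and 1 counts in control skull, against 1, 67 and 50 in control meninges, so the ranges overlapped. Dct and Tyrp1 had 3 and 2 counts in all in control skull. Their ratio of skull to meninges was 0.0377 (95% exact interval 0.00763 to 0.113, counting error only) for Dct and 0.0555 (0.00651 to 0.213) for Tyrp1. Between skull and brain, Pmel (2.45 ± 0.46) and Mitf (1.37 ± 0.17) were higher in skull, against 75.6% of all genes called. The Dct ratio of skull to brain was 0.195 (95% exact interval 0.037 to 0.656, counting error only). In bulk tissue, fewer cells of a type and less RNA per cell cannot be told apart.

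**Figure D1:**
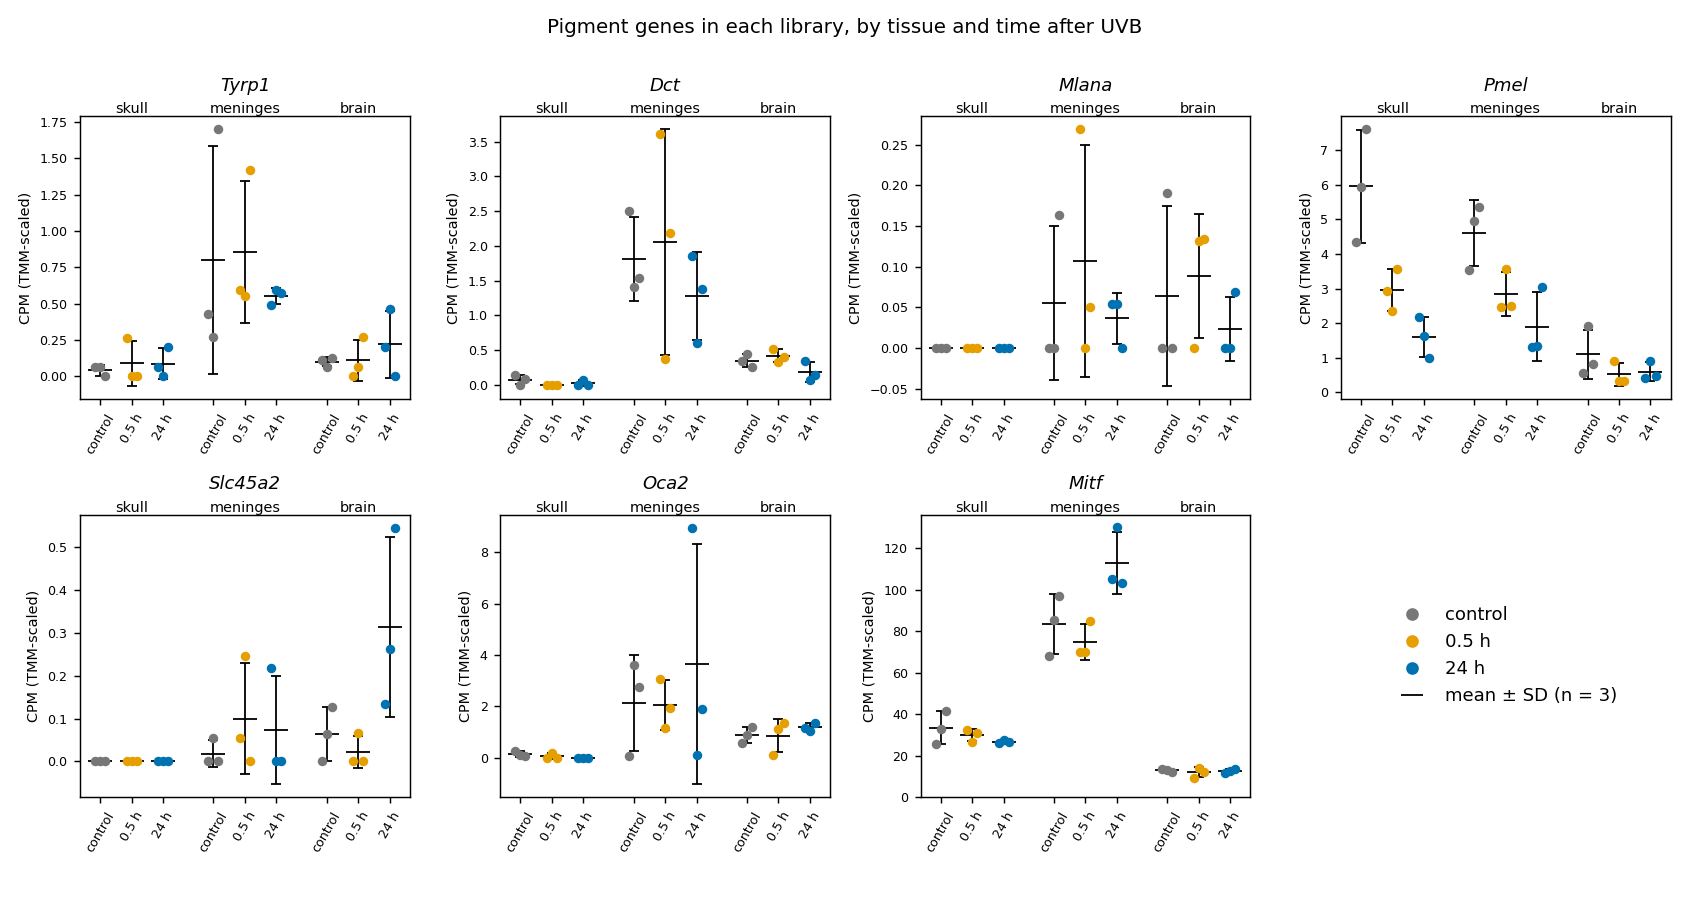
Level of each measured pigment gene in every library (points), as TMM-scaled CPM on the y axis, by tissue and time after UVB on the x axis. Black bars are the mean ± SD of 3 libraries. Pmel in skull lies between 1.01 and 2.17 CPM at 24 h and between 4.34 and 7.61 CPM in controls, and Mitf is highest in meninges.

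Pmel fell in the skull 24 h after the light. Its skull levels were 4.34, 5.93 and 7.61 CPM in controls, 2.94, 2.36 and 3.58 CPM at 0.5 h and 2.17, 1.64 and 1.01 CPM at 24 h. All libraries at 24 h lay below all at 0.5 h, and all of those lay below the controls. At 24 h the mean was 1.61 ± 0.583 CPM, against 5.96 ± 1.63 CPM in controls (SD, n = 3). The log2 fold change was -1.89 ± 0.33 (SE) with an adjusted p of 0.00218 by edgeR. Pmel was 1 of the 2 members tested in skull, and 20.9% of all genes were called in that comparison, 10.4% as lower. The call held in all 9 fits that left out a library (log2 -2.18 to -1.65, adjusted p up to 0.0109). At 0.5 h the mean was 2.96 ± 0.61 CPM, with a log2 fold change of -1.03 ± 0.31 against control and an adjusted p of 0.0798. None of the 2 members was called there, against 4.9% of all genes (22.3% at an unadjusted p under 0.05, Pmel among them). DESeq2 called Pmel at 0.5 h with an adjusted p of 0.0332. Between 24 h and 0.5 h Pmel differed by -0.87 ± 0.34, adjusted p 0.103, and neither member was called, against 16.1% of all genes (30.8% at an unadjusted p under 0.05, Pmel among them). DESeq2 also called 0 of the 2. Groups without overlap were found for 38% of all genes at 24 h against control, for 27.4% at 0.5 h against control and for 37.3% between the times.

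The meninges gave the same order of Pmel means with more overlap. Pmel levels were 3.54, 4.95 and 5.36 CPM in control meninges, 2.48, 3.57 and 2.49 CPM at 0.5 h and 1.31, 1.35 and 3.05 CPM at 24 h. All libraries at 24 h lay below the controls, and 28% of all genes had groups without overlap in this comparison. The highest at 24 h lay above 2 of those at 0.5 h. The mean at 24 h was 1.9 ± 0.989 CPM, against 4.62 ± 0.954 CPM in controls (SD, n = 3), a log2 fold change of -1.27 ± 0.36 with an adjusted p of 0.0552. So Pmel did not pass the threshold in meninges, and without the third library at 24 h its adjusted p was 0.0167. DESeq2 gave an adjusted p of 0.0145. At 0.5 h the log2 fold change was -0.70 ± 0.36 with an adjusted p of 0.431, and between 24 h and 0.5 h it was -0.57 ± 0.36 with an adjusted p of 0.483. In brain Pmel had 6, 14 and 7 counts at 24 h, against 15, 30 and 13 in controls, and the ranges overlapped as CPM (0.405 to 0.922 against 0.568 to 1.91). The log2 fold change in brain was -0.81 ± 0.62, adjusted p 0.528. The change of Pmel at 24 h in skull minus that in meninges was -0.61 ± 0.61 on the log2 scale, with an adjusted p of 0.799 in the fit of all 27 libraries.

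Several facts stand beside the fall of Pmel. The gene (chromosome 10, 128704195 to 128720238, plus strand, GRCm38) shares 105 exon bases with Dgka and 34 with Cdk2, both on the other strand, and the strand setting of the counts is not given in the sources used here. At 24 h in skull Dgka had a log2 fold change of -0.38 ± 0.09 (adjusted p 0.00960) and Cdk2 one of 0.30 ± 0.11 (adjusted p 0.0814). Some markers of other skull cells were called at 24 h too, in a comparison where 20.9% of all genes were called. Of the marker sums in skull, those of the mast cell and hair follicle lists did not overlap between 24 h and control. The summed level of 5 Schwann cell markers was 26.3 to 31.4 CPM at 24 h, against 29.6 to 45 CPM in controls, with Mal called lower. The 6 mast cell markers summed to 65.1 to 83.2 CPM at 24 h, against 109 to 172 CPM in controls, with 1 of 6 (Hdc, the histamine-forming enzyme) called lower. In controls 4 of these 6 were called lower and 1 higher in skull than in meninges, against 48.2% of all genes called. The 5 mature neutrophil markers summed to 2470 to 3950 CPM at 24 h, against 3110 to 6510 CPM in controls, with Camp called lower. The 5 neuron markers summed to at most 12.4 CPM at 24 h, against at most 15.7 CPM in controls, with overlapping sums and Gad1 called lower. The hair follicle list, of which 3 of 5 genes were in the table, rested in skull on Tchh, which was called lower, since Krt25 and Krt27 had no count. The sums of that list were 1.41 to 2.36 CPM at 24 h, against 4.24 to 4.67 CPM in controls. The 5 osteoblast markers had 2 called higher (Sp7, Ibsp) and 1 lower (Bglap), with sums of 63400 to 77800 CPM at 24 h against 55100 to 99800 CPM in controls. The 5 meningeal fibroblast markers had Foxc2 called lower, with sums of 31.9 to 36.9 CPM at 24 h against 33.2 to 108 CPM in controls. The 7 osteoclast markers had no call and summed to 2160 to 2920 CPM at 24 h, against 2170 to 3020 CPM in controls. In meninges the 6 pineal markers summed to 870 to 1000 CPM at 24 h, against 1170 to 1420 CPM in controls, with Aanat and Tph1 called lower. Of the osteoblast and meningeal fibroblast markers in meninges at 24 h, Sp7 and Foxc2 were called higher and Bglap lower. Over all genes 8.42% were called in that comparison. The osteoclast sum in meninges was 328 to 380 CPM at 24 h, against 397 to 516 CPM in controls. The part of these cells in the Pmel values was not tested.

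Mitf, the lineage's transcription factor, was not called between times in any tissue by edgeR with the count filter and all 9 libraries of the tissue. In meninges its levels were 67.9, 85.5 and 96.8 CPM in controls, 69.7, 69.7 and 84.8 CPM at 0.5 h and 105, 130 and 103 CPM at 24 h. All libraries at 24 h lay above all others, and those at 0.5 h overlapped the controls. Groups without overlap between 24 h and 0.5 h were found for 23.1% of all genes in meninges. The mean was 113 ± 15.1 CPM at 24 h, against 83.4 ± 14.6 CPM in controls (SD, n = 3), a log2 fold change of 0.44 ± 0.14 with an adjusted p of 0.0839. In that comparison 0 of the 5 tested members were called, against 8.42% of all genes (24% at an unadjusted p under 0.05, Pmel and Mitf among them). DESeq2 called 2 of 5, Pmel and Mitf, with an adjusted p of 0.0398 for Mitf. Against 0.5 h the difference was 0.60 ± 0.14 with an adjusted p of 0.0624, and 0 of 5 were called, against 2.34% of all genes (16.2% at an unadjusted p under 0.05, Mitf among the members). DESeq2 called Mitf there too, with an adjusted p of 0.00379. So did edgeR without the count filter (adjusted p 0.0299) and with the 2 groups alone (adjusted p 0.0472). In skull Mitf had 25.7, 33.0 and 41.7 CPM in controls, 32.4, 26.7 and 30.7 CPM at 0.5 h and 26.1, 27.5 and 26.7 CPM at 24 h, all groups overlapping. The log2 fold changes in skull were -0.34 ± 0.16 at 24 h (adjusted p 0.147) and -0.18 ± 0.16 at 0.5 h (adjusted p 0.530). Without the first skull control the 24 h value had an adjusted p of 0.0280. The change of Mitf at 24 h in skull minus that in meninges was -0.77 ± 0.22, adjusted p 0.135. For such a difference 0 of 5 members were called, against 0.633% of all genes, and 0 by DESeq2. At an unadjusted p under 0.05, 11.2% of all genes passed, with Mitf among the members. Of the 5, Tyrp1, Dct and Oca2 did not pass the filter within skull, so their part of that count says little of the skull. Mitf is also used by mast cells and osteoclasts. In meninges the mast cell sum was 215 to 297 CPM at 24 h, against 195 to 264 CPM in controls, with Hdc called lower (-1.08 ± 0.18, adjusted p 0.00484). At 0.5 h Hdc was called lower too (-1.01 ± 0.18, adjusted p 0.0268). Their part in the Mitf values was not tested.

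**Figure D2:**
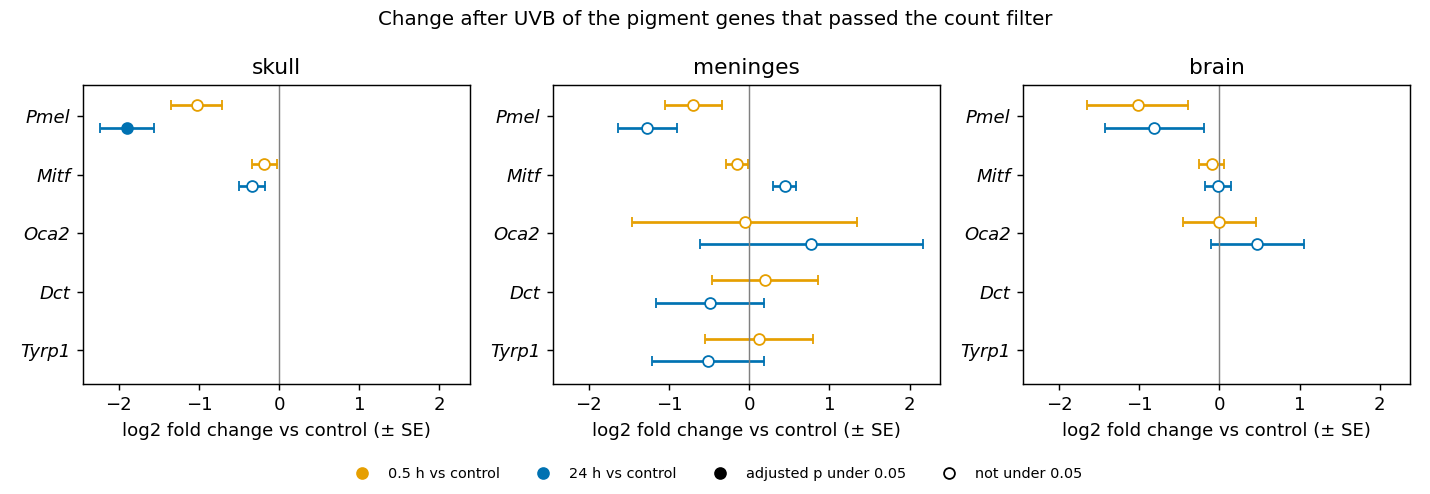
Log2 fold change against control (x axis) of the pigment genes that passed the count filter in each tissue, at 0.5 h and 24 h. Points are edgeR estimates, bars are ± 1 SE, and a filled point has an adjusted p under 0.05. The 1 filled point is Pmel in skull at 24 h, at -1.89.

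Oca2, the melanosome's chloride channel, varied more within groups than between them. In meninges it had 1, 67 and 50 counts in controls, 57, 19 and 38 at 0.5 h and 164, 2 and 33 at 24 h. Every group overlapped the others, with the highest library at 24 h and the lowest in the controls. The log2 fold changes were 0.77 ± 1.39 at 24 h (adjusted p 0.794) and -0.06 ± 1.41 at 0.5 h (adjusted p 0.995). These counts stood beside the choroid plexus markers Ttr, Folr1, Kl, Aqp1 and Kcnj13, whose summed level in the same libraries was 321, 4620 and 5890 CPM in controls, 4530, 3310 and 3240 CPM at 0.5 h and 12800, 402 and 3580 CPM at 24 h. The library with 164 Oca2 counts had the highest choroid plexus sum, and the libraries with 1 and 2 counts had the lowest sums. In brain Oca2 had 15, 14 and 19 counts in controls, 2, 17 and 20 at 0.5 h and 17, 16 and 20 at 24 h. The brain library with 2 counts had a choroid plexus sum of 47.5 CPM, the lowest of the 9, which otherwise ran from 209 to 604 CPM. The log2 fold change in brain at 24 h was 0.47 ± 0.58 (adjusted p 0.723). In skull Oca2 had 10 counts in all, 0 of them in the 3 libraries at 24 h. The choroid plexus sum in skull was 332 to 481 CPM, within the range of the brain libraries, but its make-up differed. In control skull 4 of the 5 markers were called lower than in control brain and 1 higher, against 75.6% of all genes called. Against control meninges Kl, Folr1, Kcnj13 and Ttr were called lower and Aqp1 was not called, against 48.2% of all genes. The skull sum is therefore not a like measure. Oca2, with at most 4 counts in a skull library, was not read against it. Whether the choroid plexus was the source of the Oca2 counts was not tested.

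**Figure D3:**
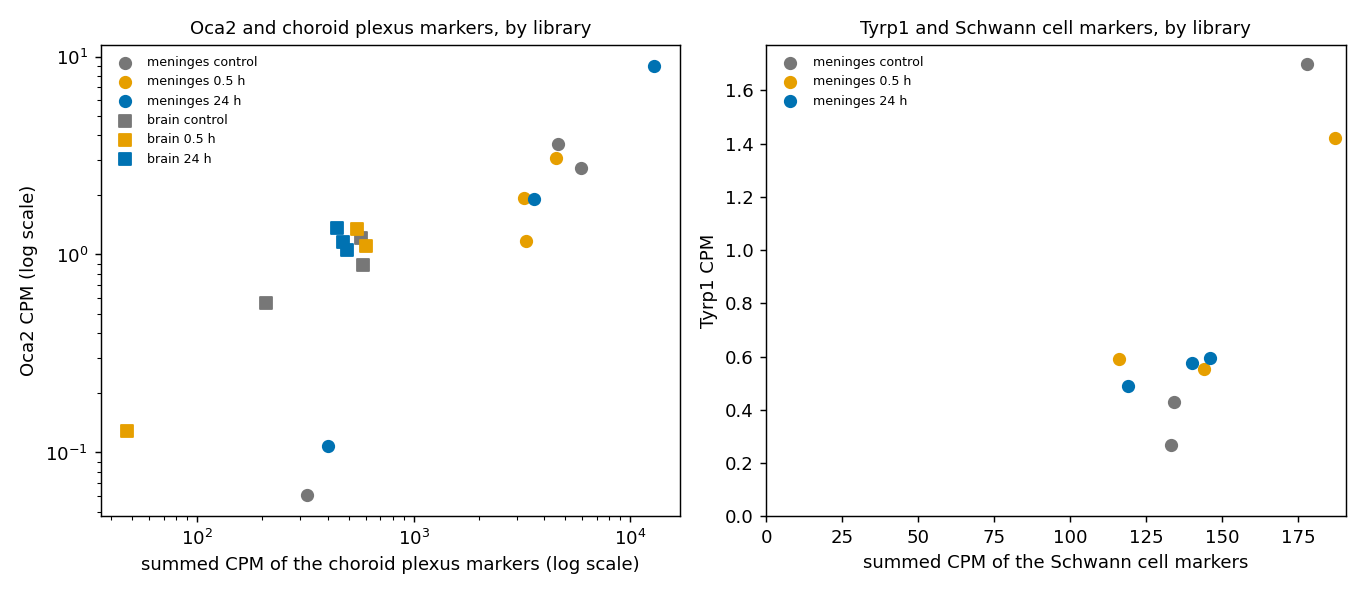
Left, Oca2 CPM (y axis, log scale) against the summed CPM of 5 choroid plexus markers (x axis, log scale) in 9 meninges and 9 brain libraries. Skull libraries are not drawn. Right, Tyrp1 CPM against the summed CPM of 5 Schwann cell markers in 9 meninges libraries. The meninges library at 24 h with 8.95 CPM of Oca2 has a choroid plexus sum of 12800 CPM, and the control with 1.7 CPM of Tyrp1 has a Schwann cell sum of 178 CPM.

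The synthesis enzymes did not show a change that stood out from the spread. Tyrp1, which acts late in the making of brown-black melanin, had 7, 5 and 31 counts in control meninges, 11, 9 and 28 at 0.5 h and 9, 11 and 10 at 24 h. One library in the controls and 1 at 0.5 h held more than the rest of their group together, and the 24 h libraries were alike. The log2 fold changes were -0.51 ± 0.70 at 24 h (adjusted p 0.715) and 0.12 ± 0.67 at 0.5 h (adjusted p 0.974). The Schwann cell sum was 134, 133 and 178 CPM in controls, 116, 144 and 187 CPM at 0.5 h and 119, 146 and 140 CPM at 24 h, so the same 2 libraries were highest in both. The neuron sum was also high in these 2, at 377 and 358 CPM, though a 24 h library had 381 CPM. Dct, the tautomerase upstream of Tyrp1, had 41, 26 and 28 counts in control meninges, 67, 6 and 43 at 0.5 h and 34, 11 and 24 at 24 h. The 0.5 h libraries of Dct covered the range of all 9. Its log2 fold changes were -0.49 ± 0.68 at 24 h (adjusted p 0.718) and 0.19 ± 0.66 at 0.5 h (adjusted p 0.954). At 0.5 h 0 of the 5 members were called in meninges, against 0.874% of all genes (13.6% at an unadjusted p under 0.05, none of them a member), and DESeq2 also called 0. In skull Dct had 4 counts and Tyrp1 10 counts over 9 libraries, which are too few for a comparison of times.

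Mlana and Slc45a2 passed the filter in no tissue. Mlana had at most 5 counts in any library, a meninges library at 0.5 h. Slc45a2 had at most 8 counts, in a brain library at 24 h. In brain Slc45a2 had 2, 4 and 8 counts at 24 h, against 0, 1 and 2 in controls. In meninges it had 4, 0 and 0 counts at 24 h, against 0, 1 and 0 in controls. In brain as a whole 0 of 3 tested members (Pmel, Oca2 and Mitf) were called, at 0.5 h (0.0055% of all genes called), at 24 h (2.62%) or between these times (0.22%). At an unadjusted p under 0.05, 5.26%, 18.3% and 12.2% of all genes passed in the same order, none of them a member, and DESeq2 also called no member. Mitf in brain was 13.6, 12.9 and 12.3 CPM in controls, 9.4, 14.2 and 12.1 CPM at 0.5 h and 11.5, 12.6 and 13.4 CPM at 24 h. For the 0.5 h change in skull minus that in meninges, 0 of 5 members were called, against 0.0093% of all genes, and 0 by DESeq2. At an unadjusted p under 0.05, 5.83% of all genes passed, none of them a member. Tyrp1, Dct and Oca2 entered that fit through tissues other than skull. Their 10, 4 and 10 counts over the 9 skull libraries were too few for a comparison of times.

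The wider melanocyte pathway was read in meninges at 24 h against 8.42% of all genes called, 3.97% as higher and 4.45% as lower. Edn1, an endothelin that skin cells release to melanocytes after UV, had 4.75, 6.01 and 6.32 CPM at 24 h, against 20.5, 18.3 and 23.9 CPM in controls. The groups were far apart. Edn1 fell with a log2 fold change of -1.86 ± 0.15 and an adjusted p of 0.000119, a call kept without any single library. At 0.5 h Edn1 had 16.2, 16.6 and 14.5 CPM and a log2 fold change of -0.40 ± 0.15 (adjusted p 0.253). Trp53, the gene of p53, had 71.5, 83.2 and 76.4 CPM at 24 h, against 49.8, 51.5 and 46.5 CPM in controls. It rose by 0.65 ± 0.09 on the log2 scale (adjusted p 0.00235), also kept without any single library. Kitl, the ligand of the melanocyte receptor Kit, had 57.0, 55.9 and 63.7 CPM at 24 h, against 46.4, 49.9 and 47.7 CPM in controls. Its call (0.30 ± 0.08, adjusted p 0.0438) ended without any 1 of the 9 libraries, with adjusted p up to 0.146, and also with RLE scaling, no filter, the replicate block or the 2 groups alone. With Kitl counted, there were 2 higher and 1 lower of 10 tested tanning signals, whose median log2 fold change was -0.09, against 0.02 over all genes. The median of the list therefore lay below that of all genes while more of its members were called higher.

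Among 19 lineage factors and receptors in meninges at 24 h, 4 were higher and 0 lower, with a median log2 fold change of 0.21, against the 3.97% and 4.45% of all genes given above. Ednrb, the endothelin receptor of melanocyte precursors, had 57.3, 60.4 and 56.8 CPM at 24 h, against 41.2, 43.6 and 37.0 CPM in controls (log2 0.53 ± 0.14, adjusted p 0.0395). Snai2, a neural crest transcription factor, had 23.0, 24.8 and 22.2 CPM at 24 h, against 15.6, 15.2 and 10.2 CPM in controls (0.78 ± 0.21, adjusted p 0.0453). Tfap2b, of the AP-2 family, changed by 0.77 ± 0.20 (adjusted p 0.0375), and Tfe3, a relative of Mitf, by 0.42 ± 0.11 (adjusted p 0.0431). The call of Ednrb ended in 7 of the 9 fits without a library, and those of Snai2, Tfap2b and Tfe3 in 8 of 9 each, with adjusted p up to 0.112, 0.127, 0.126 and 0.150. In the 9 meninges libraries Dct ran from 0.369 to 3.61 CPM and Tyrp1 from 0.269 to 1.7 CPM. Which cells held the transcripts of the tanning signals and lineage factors called in meninges or skull was not tested. Sox10, Pax3 and Kit were not called. Pax3 was present in all 9 meninges libraries, between 4.2 and 6.89 CPM, and so was Mc1r, between 0.69 and 2.1 CPM. At 0.5 h none of the 3 pathway lists had a call in meninges. Irf4 had the smallest p there (0.90 ± 0.30, adjusted p 0.222), and between 24 h and 0.5 h it was lower at 24 h, by -1.40 ± 0.31 with an adjusted p of 0.0429, a call that ended in 8 of 9 fits without a library. Edn1 (-1.46 ± 0.15) and Trp53 (0.47 ± 0.09) were called between these times too.

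The melanosome list had 1 call among 31 tested genes in meninges at 24 h, a share under the 8.42% of all genes called. This was Trpm1, a cation channel of melanocytes and retinal bipolar cells, which shares 12 exon bases with a gene on the other strand. Trpm1 had 13, 9 and 12 counts at 24 h, against 29, 39 and 32 in controls, with 23, 22 and 13 at 0.5 h. Its log2 fold change at 24 h was -1.56 ± 0.40 with an adjusted p of 0.0373, and the call ended in 8 of 9 fits without a library (adjusted p up to 0.122). The pineal sum was 870 to 1000 CPM in the same libraries at 24 h, against 1170 to 1420 CPM in controls, and its part in Trpm1 was not tested. In skull Trpm1 had 8, 7 and 5 counts at 24 h, against 1, 2 and 0 in controls, a ratio of 6.52 (95% exact interval 1.93 to 34.3, counting error only). Other melanosome genes were not called in meninges, and the list's median was 0.08, against 0.02 over all genes.

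**Figure D4:**
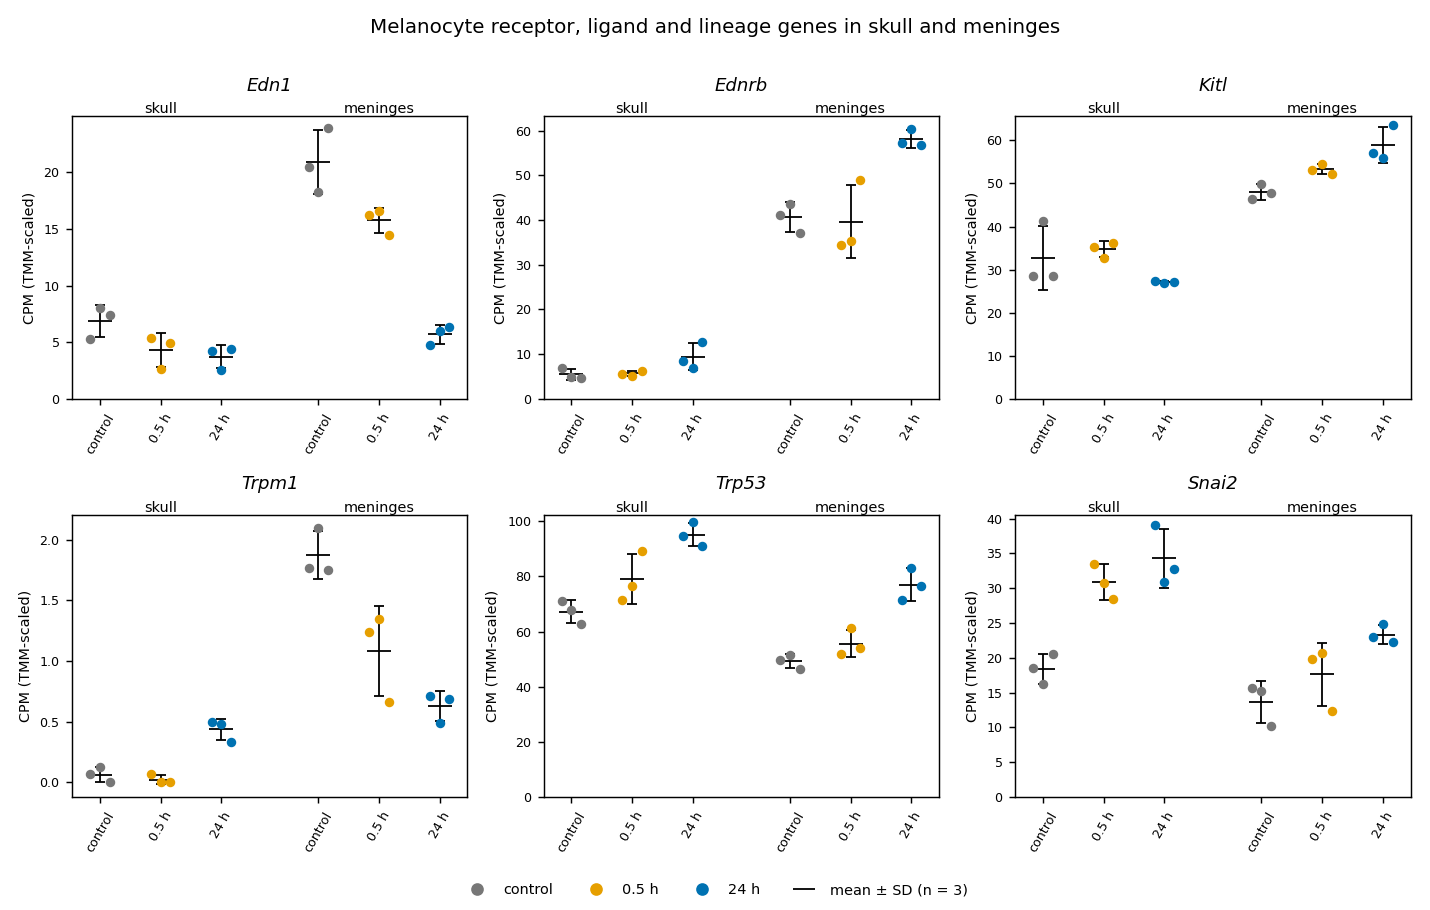
Levels (TMM-scaled CPM, y axis) of 6 genes of the wider melanocyte pathway in each skull and meninges library (points), by time after UVB (x axis), with mean ± SD of 3 libraries. In meninges Edn1 lies between 4.75 and 6.32 CPM at 24 h and between 18.3 and 23.9 CPM in controls.

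In the skull at 24 h the melanosome list had 3 higher and 2 lower of 29 tested genes and a median log2 fold change of -0.05. Over all genes 20.9% were called there, 10.6% as higher and 10.4% as lower, so the list's count is near that background. Tpcn2, a channel of the melanosome and lysosome membrane, had 49.7, 54.2 and 52.8 CPM at 24 h, against 37.5, 42.1 and 37.2 CPM in controls. It rose by 0.41 ± 0.09 (adjusted p 0.00626), a call kept without any single library. Mfsd12, a transporter of melanosomes and lysosomes (0.39 ± 0.11, adjusted p 0.0246), and Myo5a, the motor that carries melanosomes (0.28 ± 0.07, adjusted p 0.0163), also rose. Sytl2, a vesicle adaptor (-0.49 ± 0.14, adjusted p 0.0267), and Hps3, a sorting subunit (-0.47 ± 0.14, adjusted p 0.0290), fell. Of these, the call of Mfsd12 ended in 3, Myo5a in 1, Sytl2 in 4 and Hps3 in 4 of the 9 fits without a library, with adjusted p up to 0.0942, 0.0567, 0.0884 and 0.123. Hps3 shares 108 exon bases with Cp on the other strand, and Mfsd12 shares 1179 with a transcript on the other strand. These 5 genes serve lysosomes or vesicles in many cells.

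Lineage factors in skull at 24 h had 2 higher and 2 lower of 15 tested, with a median of -0.08, against 20.9% of all genes called. Snai2 had 39.1, 30.9 and 32.8 CPM at 24 h, against 18.5, 16.2 and 20.5 CPM in controls, a rise of 0.88 ± 0.13 (adjusted p 0.000850). It was the 1 gene of the 3 pathway lists called in skull at 0.5 h, with 33.5, 30.7 and 28.4 CPM and a rise of 0.72 ± 0.13 (adjusted p 0.0123), which ended without any 1 of 2 libraries of that time (adjusted p up to 0.0617). Ednrb rose by 0.77 ± 0.25 at 24 h (adjusted p 0.0426), lost in 6 of 9 such fits with adjusted p up to 0.193. Irf4, a factor of lymphocytes as well as of melanocytes, had 4.41, 10.7 and 4.84 CPM at 24 h, against 26.6, 22.5 and 18.9 CPM in controls. Irf4 fell by 1.79 on the log2 scale (SE 0.29, adjusted p 0.00232), and Lef1, a Wnt-responsive factor also of lymphocytes, had a log2 fold change of -1.17 ± 0.34 (adjusted p 0.0284, lost in 4 of 9 fits with adjusted p up to 0.1005). Trp53 was the 1 of 9 tested tanning signals called in skull at 24 h, with 94.7, 99.7 and 91.1 CPM, against 71.2, 67.7 and 62.8 CPM in controls. It rose by 0.49 ± 0.09 (adjusted p 0.00358). That list's share of calls is under the 20.9% of all genes. Pax3 and Mc1r had 11 counts each over the 9 skull libraries.

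In brain at 24 h the melanosome list had 1 call among 28 tested genes, Slc7a11 (0.31 ± 0.08, adjusted p 0.0460), a cystine transporter, and the tanning list had 1 among 11, Edn1 (-1.23 ± 0.31, adjusted p 0.0412), against 2.62% of all genes called. Edn1 had 1.96, 2.83 and 1.16 CPM in brain at 24 h, against 5.75, 3.87 and 4.70 CPM in controls, with no overlap, as for 22.1% of all genes. Each of these calls ended in 7 of the 9 fits without a library, with adjusted p up to 0.146 for Slc7a11 and 0.154 for Edn1. No lineage factor was called in brain at 24 h, and at 0.5 h no gene of the 3 lists was.

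Likeness to the pigment genes was measured as Pearson's r with the mean standardised profile of the members other than Mitf that averaged at least 0.5 CPM, without a test. Over all 27 libraries, where the profile was that of Dct, Pmel and Oca2, the nearest genes were Cdh3 (r = 0.911), Baiap2l1 (0.91), Gm9910 (0.908) and Cab39l (0.903). These points share the difference between tissues. Over the 9 meninges libraries, with Tyrp1 added, they were Acyp2 (0.944), Aftph (0.93), Tubg2 (0.929) and Azi2 (0.927). Over the 9 skull libraries only Pmel reached that level, and Ddx47 (0.979), Qpct (0.969), Cyp27b1 (0.964) and Eya2 (0.963) were nearest to it. No gene of the fixed pathway or marker lists was among the 8 nearest in any of the 3 rankings.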

How the data were processed

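Messenger RNA was measured in 27 mouse libraries, 3 in each of 9 groups taken from the labels. The deposited values are whole-number counts per gene symbol, with totals of 14.2 M to 27.3 M. Per the labels' protocols, TRIzol was used for extraction and libraries were made from poly(A) RNA. The submitters' processing notes name HISAT2 2.1.0 and the genome build mm10, while the counter, annotation and strandedness were not given in the sources used here. From these counts, genes were tested with edgeR 4.0.16 in R 4.3.3 (quasi-likelihood F test, robust option, TMM scaling, filterByExpr with minimum count 10 and minimum total 15). The Benjamini-Hochberg adjustment covered all genes of a comparison, with a threshold of 0.05. Comparisons within a tissue used its 9 libraries, and those between tissues used all 27. The SE was taken from the fold change and its F statistic, as |log2 fold change| divided by √F. Levels are CPM on TMM-scaled totals, divided by exon length (GENCODE M21, GRCm38) where given per kb. Likeness used log2(CPM + 0.5). Ratios with 1 to 3 counts in a group carry a 95% exact Clopper-Pearson interval. SD and SE hold the spread between libraries, and floors and exact intervals cover counting error only. Reads copied by PCR, with no molecular identifiers, do not count independent molecules.

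The members and lists were chosen with earlier results of these data known. All members are named in every tissue. Of the pathway lists, genes called against control are named, at most 6 per list by smallest p, and Sox10, Pax3, Kit, Mc1r, Dgka and Cdk2 are given beyond that rule, chosen after their values were seen. Alternatives were RLE scaling, no filter, DESeq2 1.42.0, the 2 groups or the controls alone, a block for the replicate number, and fits that leave out 1 library each. No pair of libraries was a duplicate, since replicates differed by 5.14 to 56.7 in chi-square per gene. A gene of the marker lists is not reported here and was left out of the sums.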

Additional observations from a re-analysis of the deposited data

Results flagged for a closer look

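The test of the 24 h change in skull minus that in meninges called Trpm1, a gene that did not pass the count filter within skull. Trpm1 had 8, 7 and 5 counts in skull at 24 h, against 1, 2 and 0 in control skull, and 13, 9 and 12 counts in meninges at 24 h, against 29, 39 and 32 in control meninges. The change in skull minus that in meninges was 4.15 ± 0.89 (SE) on the log2 scale, with an adjusted p of 0.0277 by edgeR over all genes of the fit of 27 libraries. Trpm1 entered that fit through its counts in other tissues. The test therefore lends no support to the skull change or to a difference between the tissues. The skull counts are low, and the fitted size depends on the prior count. The call ended in 7 of 27 fits that left out 1 library, with adjusted p up to 0.0811, and without the count filter, with an adjusted p of 0.0604. The libraries whose removal ended it were skull control 1 and 3, skull 24 h 1 and 2, meninges control 2 and meninges 24 h 1 and 2.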

How the results depend on the processing

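The fall of Pmel in skull at 24 h held under every alternative run. In meninges at 24 h against control the members called went to 1 without a count filter and 2 with DESeq2, with 0 to 1 when a library was left out (1 without the third at 24 h). At 24 h against 0.5 h in meninges they went to 1 without a filter, with DESeq2 and with the 2 groups alone, and 0 to 1 with a library left out (1 without control 1 or control 3). In skull at 0.5 h they went to 1 without a filter and with DESeq2. With a library left out they ran from 1 to 2 in skull at 24 h (2 without control 1). For the 24 h change in skull minus that in meninges they ran from 0 to 1. The 1, without skull control 1, was Mitf at an adjusted p of 0.0411. For skull against meninges in controls they ran from 2 to 4 (2 without meninges control 3). With all libraries, 48.2% of all genes were called there. Tyrp1, Dct and Oca2 entered that fit through tissues other than skull and were bound to differ. That range therefore describes the fits only and is no evidence of a difference for the group. No pairing by replicate number was seen in the pairs checked. The deviations of 36 same-numbered pairs correlated between -0.44 and 0.213, and in 0 of 12 comparisons did all 3 pairs exceed 0.1. Pairs between tissues were checked in controls only, so tissues of 1 mouse under the same number at 0.5 h or 24 h were not checked. With the numbers as a block the members called in skull at 24 h stayed at 1, while Dct in meninges at 0.5 h turned to -0.13 and Oca2 in meninges at 24 h to -0.056 on the log2 scale. With a library left out, log2 changes in meninges turned sign for Dct at 0.5 h (-0.49 to 0.66), Tyrp1 at 0.5 h (-0.47 to 1.30) and at 24 h (-0.93 to 0.67), and Oca2 at 0.5 h (-0.63 to 0.55), at 24 h (-1.09 to 1.38) and between the times (-1.03 to 1.40), and in skull for Mitf at 0.5 h (-0.35 to 0.022). Each of these had an adjusted p over 0.05, and the cause was not tested. Mlana and Slc45a2 were too low in counts to be tested in any tissue.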

Other observations

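Genes nearest to single members were ranked after the values were seen, as a description without a test. Over 27 libraries Oca2 was nearest to Gmnc (r = 0.959), Prr32 (0.952), Kcne2 (0.952) and Tmem72 (0.948). Over the same libraries Mitf was nearest to Mcpt4 (r = 0.98), a mast cell protease, and Gfra3 (0.98), with Lyve1 and Tpsb2 at 0.979. These 27 points share the differences between tissues. Over the 9 meninges libraries alone Mitf was nearest to Ung (r = 0.981) and Psat1 (0.96), and over the 9 skull libraries to Lancl1 (0.952). In neither ranking was a gene of the fixed pathway or marker lists among the 8 nearest to Mitf. Over the 9 meninges libraries Tyrp1 was nearest to Rab39 (r = 0.983) and Cbln2 (0.972).

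Slc45a2 had 2, 4 and 8 counts in brain at 24 h, against 0, 1 and 2 in control brain, a ratio of 6.05 (95% exact interval 1.69 to 32.8, counting error only), and it was below the count filter. Tfap2b was high in 2 brain libraries, with 171 counts in the third at 0.5 h and 110 in the third at 24 h, against 4 to 27 in the other 7. Pomc had 127 counts in the first brain library at 0.5 h and 0 in the third brain control. Aanat, the enzyme of pineal melatonin synthesis, had a log2 fold change of -3.47 ± 0.29 in meninges at 24 h against control (adjusted p 0.000502 by edgeR), and the clock time of collection is not given in the sources used here.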
